A study of Mus musculus with 2 samples.

Results

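Chromatin regulators are proteins that write, remove or read chemical marks on histones and DNA, or that move nucleosomes along the DNA. Acetylation of histones, which bromodomain proteins bind and deacetylases remove, generally goes with active genes, while methylation of histone lysines goes with active or silent genes depending on the lysine. In fibroblasts, as in other cells, most of these proteins are widely expressed parts of large complexes, and growth factor signals reach chromatin in part through them. The genes described here were chosen by symbol, as those whose mouse symbol starts with Hdac, Kdm, Kmt, Smarc, Chd, Cbx, Setd, Brd, Dnmt, Phf or Ing, followed by a digit where the family is numbered. Within these families the name alone chose the genes, and the families were chosen with earlier results of these data known. Of 137 such symbols in the RefSeq gene table, 44 had a probe that could be named, of 7409 genes named in all, and the other 93 are unmeasured here.

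The data come from 2 cultures of mouse embryonic fibroblasts of the NMRI stock, each measured on 1 Illumina bead array. Both cultures had been treated with mitomycin C, which crosslinks DNA and stops division, and had then been plated anew on a gelatine coat, with 55000 cells for each square centimetre. Both then spent 24 h in a serum replacement medium made for human embryonic stem cells, the control without FGF2 and the other with 40 ng/ml of this fibroblast growth factor. The labels give neither how many embryos were pooled nor the passage, and all values are those of growth-arrested cells, in the control too. With 1 array per group there is no replicate error and no p-value, and every difference below is between these 2 arrays. In bulk RNA, fewer cells of a type and less RNA per cell cannot be told apart.

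Of 24044 probes, 7599 were detected in control and 7424 with FGF2, where detected means a deposited detection score of at least 0.99. The 90th percentile of the signals was 649.8 in control and 548.4 with FGF2, so ratios were taken after quantile normalization. All 6 fibroblast markers with a named probe were detected, and 4 of the 6 were at least 1.5-fold lower with FGF2. These 4 were the collagen genes Col1a1 (4.62-fold, deposited signals of 12828 and 2494), Col1a2 (4.87-fold) and Col3a1 (3.46-fold) and the matrix gene Fbln1 (2.31-fold), while the proteoglycan gene Dcn (11748 and 9883) and S100a4 (1935.1 and 1780.0) were within 1.3-fold. The summed signal of the list was 33358 in control and 15792 with FGF2. The 2 endothelial genes and the 4 genes of pluripotent stem cells with a named probe were all undetected. From the macrophage and leukocyte list, 6 genes had a named probe and 2 passed, the lysozyme gene Lyz2 with 374.8 and 220.2 and Cd53 with 176.7 and 318.7, while the probes of the defining leukocyte gene Ptprc were not detected. Of 3 epithelial markers 2 were detected, Krt18 with 191.1 and 268.5 and Cldn4 with 202.4 and 187.0. The part of other cells in the results below was not tested.

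Few chromatin regulators differed by 1.5-fold between the arrays. Of the 44 genes, 25 were detected on at least 1 array by their brightest probe (56.8%, against 40.6% of all named genes), 24 of them on both. Kmt5a, which monomethylates histone H4, was 1.53-fold higher with FGF2, and Phf11d, which encodes a PHD finger protein, was 1.80-fold lower. These were the genes past 1.5-fold, 1 of 25 higher and 1 of 25 lower, while among 3005 named genes detected the same way 5.29% were at least 1.5-fold higher and 6.79% at least 1.5-fold lower. None of the 25 was 2-fold higher or 2-fold lower, beside 1.46% and 2.6% of all named genes. The shares among chromatin regulators are near the background at this number of genes.

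Of the other 23 genes, Ing4 was 1.32-fold lower with FGF2 and 22 were within 1.3-fold. These 22 of 25 (88.0%) stand beside 76.3% of all named genes. Among genes whose probes were at least as bright as the median chromatin regulator, 12 of 13 (92.3%) were within 1.3-fold, against 67.5% of 1359 named genes. The median log2 ratio of the 25 was 0.056 and that of all named genes 0.028. Of the 25, 17 (68.0%) were above 0, against 54.2% of all named genes, and 14 were above the median of all named genes. With signals as deposited 4 of 25 were above 0 and 12 of 25 above the median of all named genes, then −0.145. From the 10th to the 90th percentile the 25 ran from −0.18 to 0.28, and all named genes from −0.43 to 0.43.

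Errors given as ± are bead errors, the deposited bead standard deviations of both arrays combined on the log2 scale. They lay between 0.054 and 0.10 for the 25 genes and leave out variation between cultures. Whether the deposited value is the spread of beads or the error of their mean is not stated in the files. By this measure 7 of 25 (28%) were higher by over 2 bead errors, against 31.6% of all named genes, and 3 of 25 (12%) were lower, against 24.7%. Among the former were Kmt5a, Chd2, Chd4, Hdac1-ps, Ing1 and Smarcc1, and the 3 lower genes were Phf11d, Ing4 and Kdm1a. These counts are those after quantile normalization. With signals as deposited Kmt5a was at 0.37, Chd2 at 0.059 and Chd4 at 0.0027. Hdac1-ps (−0.042), Ing1 (−0.057) and Smarcc1 (−0.040) were then below 0, and the 3 lower genes stayed below 0.

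**Figure D1:**
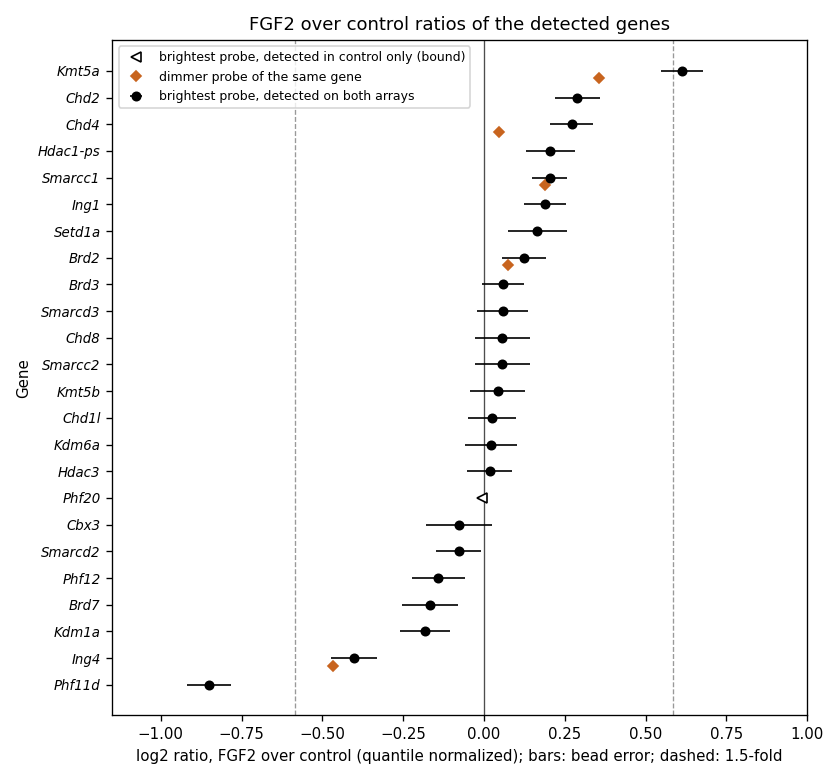
log2 ratios of FGF2 over control (x axis, quantile normalized signals) for 24 of the 25 detected chromatin regulators (y axis), with bead errors as bars and 1.5-fold as dashed lines; diamonds are dimmer probes of the same gene, of which that of Ing4 is a bound, and the open triangle is a gene detected in control only. Kmt5a at 0.61 and Phf11d at −0.85 lie outside the dashed lines, and the other genes shown lie between −0.40 and 0.29.

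**Figure D2:**
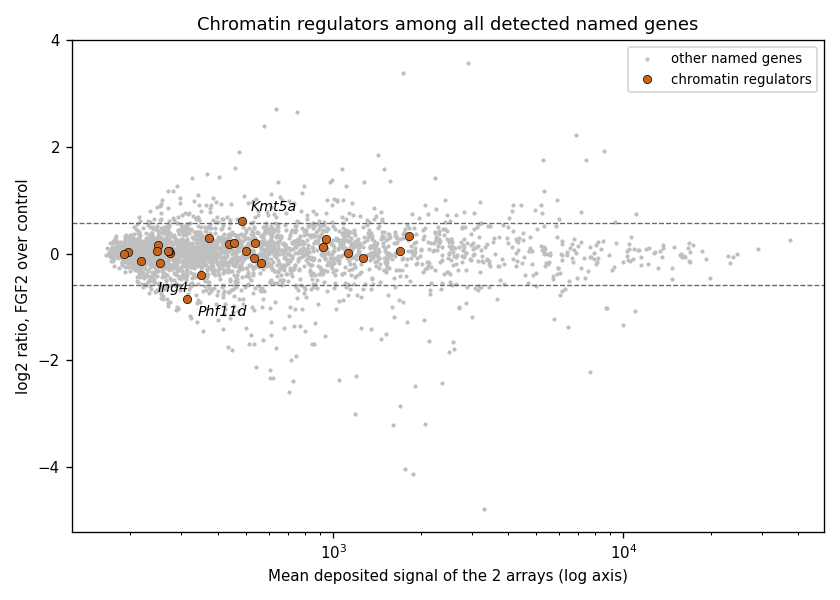
log2 ratio of FGF2 over control (y axis) against the mean deposited signal of the 2 arrays (x axis, log scale) for 3005 detected named genes, with the 25 chromatin regulators in orange and 1.5-fold as dashed lines. All named genes spread from −4.79 to 3.58, while the chromatin regulators spread from −0.85 to 0.61.

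Many Kmt and Setd genes encode methyltransferases that add methyl groups to histone lysines. Of 18 symbols 5 had a named probe and 3 were detected. All 3 were above 0 on the log2 scale and above the median of all named genes. With signals as deposited 1 of 3 was above 0 and 2 of 3 were above the median of all named genes. The deposited signal of Kmt5a was 422.8 in control and 546.8 with FGF2. It was thus higher with FGF2 before any scaling, on an array whose upper signals were lower than those of control, and the log2 ratio was 0.61 ± 0.065, at percentile 95.1 of all named genes. A second Kmt5a probe gave signals of 262.7 and 295.7 and a log2 ratio of 0.36 ± 0.063, in the same direction but under 1.5-fold, and the third was not detected. Kmt5b, which adds further methyl groups to the lysine of histone H4 that Kmt5a methylates first, had signals of 286.6 and 258.8 and a log2 ratio of 0.042 ± 0.086, within its bead error. Setd1a, the catalytic subunit of a complex that methylates histone H3 at active promoters, had 250.2 and 248.5 and a log2 ratio of 0.17 ± 0.091. Setd3 and Setd7 were not detected on either array.

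Demethylases remove those methyl groups. Of 19 symbols 7 had a named probe and 2 were detected. Kdm1a, which demethylates histone H3 as part of the CoREST repressor complex, had signals of 646.5 in control and 481.7 with FGF2, and its log2 ratio was −0.18 ± 0.078, lower with FGF2 by over 2 bead errors and under 1.5-fold. Kdm6a, which demethylates the histone H3 lysine marked by Polycomb, had signals of 290.7 and 259.2 and a log2 ratio of 0.022 ± 0.081. Kdm1b, Kdm4a, Kdm5c, Kdm5d and Kdm7a were not detected.

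Of the deacetylases, 2 of 12 symbols had a named probe, and both were detected. Hdac3, the catalytic subunit of the NCoR and SMRT corepressor complexes, had signals of 1218.1 and 1030.7 and a log2 ratio of 0.018 ± 0.070. The other probe carries the number of Hdac1-ps, a pseudogene for which the RefSeq table lists Hdac1 as a synonym, and Hdac1 itself has no other named probe. Its signals were 545.6 and 529.8, with a log2 ratio of 0.21 ± 0.076, and transcripts of Hdac1 and of the pseudogene cannot be told apart here.

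Bromodomain proteins bind acetylated histones. Brd2 and Brd3, which belong to the BET family, were both within 1.3-fold. Brd2 had 967.0 and 872.1 with a log2 ratio of 0.13 ± 0.068 and 0.076 on its other probe. Brd3 had 1815.5 and 1572.1 with a log2 ratio of 0.058 ± 0.065. Brd7, a subunit of a SWI/SNF complex and outside the BET family, had 283.2 and 223.5 and a log2 ratio of −0.17 ± 0.087, and Brd8 was not detected.

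Chromobox proteins read methylated histone lysines, some as heterochromatin proteins of the HP1 family and others within Polycomb complexes. Of 14 symbols 5 had a named probe, and of these only Cbx3 was detected. Cbx3, an HP1 protein, had signals of 592.7 and 475.6 and a log2 ratio of −0.078 ± 0.10, within its bead error. The HP1 genes Cbx1 and Cbx5 and the Polycomb genes Cbx7 and Cbx8 were not detected. Cbx8, with detection scores of 0.982 and 0.966, and Cbx1, with 0.982 and 0.948, fell just short of the detection limit, while Phf20, with 0.996 in control, and Chd1l, with 0.998 and 0.996, were just past it.

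CHD proteins are ATP-driven remodellers that move or exchange nucleosomes. The 4 of 10 symbols with a named probe were all detected and all above 0, but 2 of 4 with signals as deposited. Under both settings 3 of 4 were above the median of all named genes. Chd4, the main ATPase of the NuRD complex, had signals of 947.2 and 949.0 and a log2 ratio of 0.27 ± 0.068, but 0.047 ± 0.094 on its dimmer probe. Chd2 had 366.3 and 381.6 and a log2 ratio of 0.29 ± 0.069. For both genes the brightest probe was slightly brighter with FGF2 before scaling, and neither reached 1.3-fold. Chd8, which binds beta-catenin, had 533.8 and 469.5 with a log2 ratio of 0.056 ± 0.085, and Chd1l, a remodeller activated by poly(ADP-ribose), had 203.0 and 191.1 with 0.024 ± 0.073.

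The Smarc genes encode subunits of SWI/SNF remodelling complexes, apart from some such as Smarca5, the ATPase of ISWI complexes. Of 15 symbols 5 had a named probe and 4 were detected, all within 1.3-fold. The core scaffold gene Smarcc1 had signals of 463.2 and 450.4 and a log2 ratio of 0.20 ± 0.054, and its dimmer probe gave 0.19, a difference of 0.014 between the probes. Its paralogue Smarcc2 had 256.5 and 237.4 and a log2 ratio of 0.056 ± 0.085. The accessory subunit genes Smarcd2 and Smarcd3 had log2 ratios of −0.078 ± 0.069 (1418.2 and 1120.6) and 0.057 ± 0.079 (281.9 and 257.9). Each of these 2 was at or near its bead error, and Smarca5 was not detected.

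PHD fingers are small zinc-binding folds, many of which read the methylation state of histone H3. Of 32 Phf and Ing symbols 11 had a named probe and 5 were detected. Phf11d, Ing4 and Phf12 were below 0 and Ing1 was above 0, though below it with signals as deposited. Phf11d had signals of 423.1 in control and 206.2 with FGF2, the latter little above 184.9, the lowest signal among detected probes of that array. Its log2 ratio of −0.85 ± 0.067 was the lowest of the 25, at percentile 3.33 of all named genes, and it rests on 1 probe. Because no background was subtracted, the size of this ratio depends on how background is treated, and the authors' value table gave 3.06-fold lower. In the RefSeq table Phf11d lies in a row of related genes with Phf11, Phf11a, Phf11b and Phf11c, of which only Phf11a has a named probe, and both Phf11a probes were undetected (139.6 and 132.2 on the brighter one). Which of these paralogues the Phf11d probe can also bind was not tested.

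Ing4, a reader of methylated histone H3 in an acetyltransferase complex, was the second lowest of the 25. Its signals were 423.7 in control and 277.3 with FGF2, and its log2 ratio was −0.40 ± 0.071 (1.32-fold lower). A second probe gave 282.0 and 183.4, was undetected with FGF2 and was at least 1.38-fold lower. Both Ing4 probes were thus lower with FGF2 by more than their bead errors. The brighter one did not reach 1.5-fold after quantile normalization, and for the second, a bound, this cannot be told. Ing1, which acts in Sin3 deacetylase complexes, was on the other side of 0, with signals of 446.6 and 429.4 and a log2 ratio of 0.19 ± 0.065.

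The remaining PHD finger genes were dimmer. Phf12, a part of Sin3 corepressor complexes, had signals of 238.2 and 195.7 and a log2 ratio of −0.14 ± 0.083. Phf20, a subunit of an acetyltransferase complex, had 199.3 in control and was undetected with FGF2 at 180.6, both so near the detection limit that no fold is given. Ing5, Phf8, Phf14, Phf19 and Phf24 were not detected. Over all 19 undetected genes the signals lay between 117.0 and 188.3 in control and between 120.5 and 175.5 with FGF2, where a difference was not detectable. None of the 8 Dnmt symbols, which cover the DNA methyltransferases, had a named probe.

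**Figure D3:**
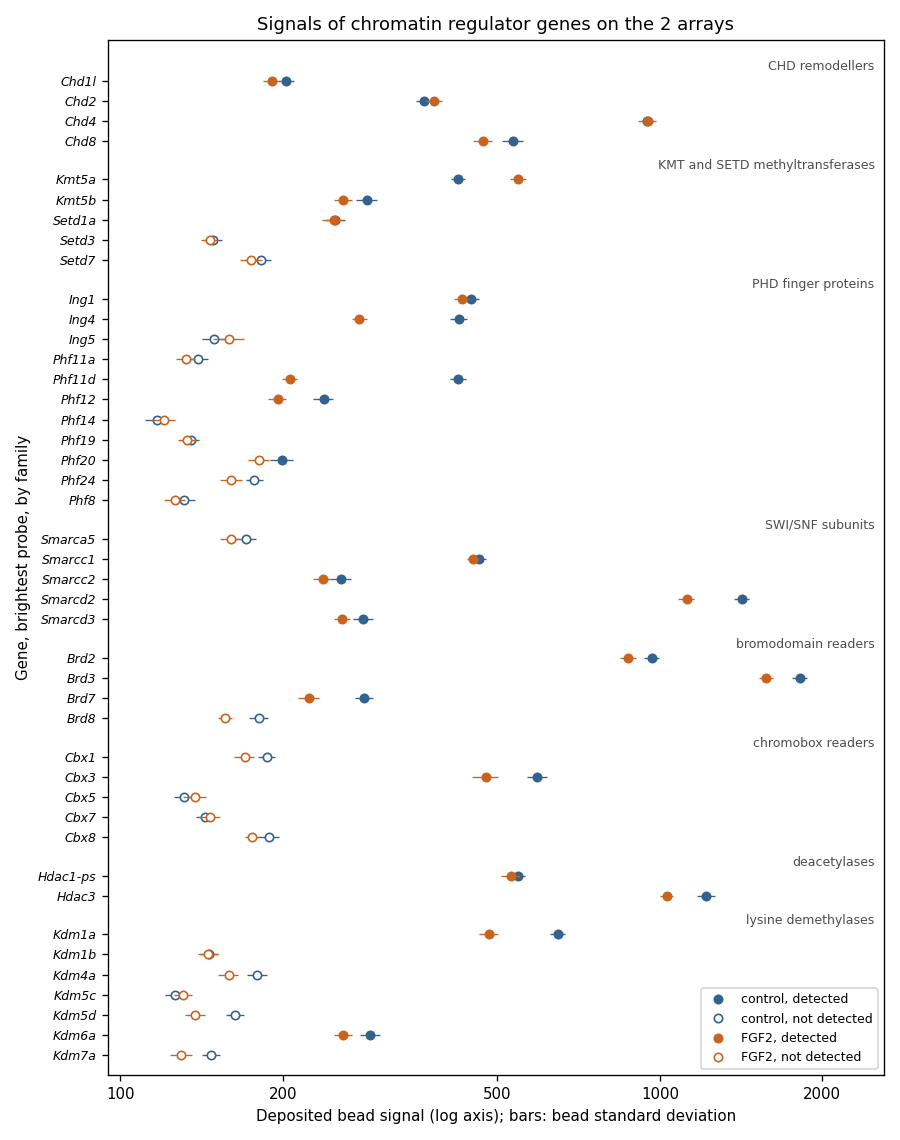
Deposited bead signals (x axis, log scale) of 43 of the 44 chromatin regulators with a named probe (y axis, by family) in control (blue) and with FGF2 (orange), with bead standard deviations as bars and open symbols for probes not detected. Phf11d (423.1 and 206.2) and Ing4 (423.7 and 277.3) have the widest gaps towards control among detected genes, and Kmt5a (422.8 and 546.8) the widest gap towards FGF2.

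For 6 genes a second probe was detected on at least 1 array. Within each of these genes the 2 probes had the same sign, and their log2 ratios differed, for example, by 0.014 for Smarcc1, 0.049 for Brd2, 0.065 for Ing4, 0.22 for Chd4 and 0.25 for Kmt5a. The value for Ing4 compares a measured ratio with a bound. For Kmt5a and Chd4 the brighter probe had the larger ratio, so their ratios depend on the probe.

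Scaling moved the ratios, but not by 1 common shift. The median log2 ratio of all named genes was 0.028 after quantile normalization, −0.14 with signals as deposited and 0.13 in the authors' value table. That of the members was 0.056, −0.147 and 0.13, and 11 of 25 members had 1 sign under every setting. In the authors' value table Brd7 and Phf12 were lower (both −0.35) than after quantile normalization (−0.17 and −0.14), while Kmt5a was higher (0.88). Relative to the median of all named genes under the same processing, Phf11d lay between −1.74 and −0.75 over 11 settings, Ing4 between −0.77 and −0.38, Kdm1a between −0.32 and −0.19, and Kmt5a between 0.46 and 0.75. Chd2 lay between 0.20 and 0.34. In all, 17 of 25 genes were on 1 side of that median under each setting that gave them a value, 10 above and 7 below. No matching share is given for all named genes, so these counts describe single genes and are not a trait of chromatin regulators. These settings reuse the same 2 arrays and add no replicate. Kmt5a missed 1.5-fold after loess (0.57), with unscaled signals (0.37), with an offset of 50 and no floor (0.55) and as the mean of its probes (0.48), and Ing4 was past 1.5-fold lower with signals as deposited (−0.61) and in the authors' value table (−0.64).

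**Figure D4:**
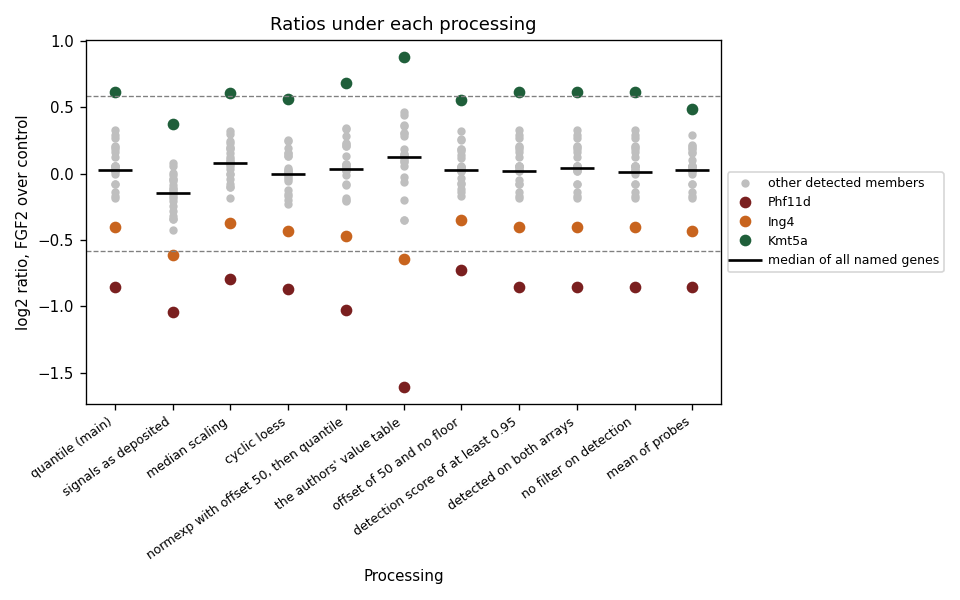
log2 ratios of FGF2 over control (y axis) of the detected chromatin regulators under 11 processing settings (x axis), with black bars for the median of all named genes and dashed lines at 1.5-fold. Phf11d is under −0.58 in every column, and Kmt5a crosses the upper line in some columns. The black bar and most grey genes are lowest with signals as deposited.

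The promoters of the 3 genes outside 1.3-fold are shown, since these genes carry the differences of the family and their windows differ in base composition. Each window runs from 250 bases before to 50 bases after the start of the gene, from RefSeq on build GRCm38.p6, and where a gene has several starts, as Kmt5a with 3, the most upstream one is shown. Capitals mark matches on either strand to any of 7 motifs. The site of the TATA-binding protein was searched as TATAAA, and the site of the factor NF-Y as CCAAT. The GC box, bound by Sp factors, was searched as GGGCGG, and the site of ETS factors as CGGAAGT. The cAMP response element was searched as TGACGTCA, the site of AP-1 factors as TGANTCA, and the core site of interferon regulatory factors as AANNGAAA. The windows are chr14:59365441-59365740 on the minus strand for Phf11d, chr5:124439680-124439979 on the plus strand for Kmt5a and chr6:125039598-125039897 on the plus strand for Ing4.
Phf11d: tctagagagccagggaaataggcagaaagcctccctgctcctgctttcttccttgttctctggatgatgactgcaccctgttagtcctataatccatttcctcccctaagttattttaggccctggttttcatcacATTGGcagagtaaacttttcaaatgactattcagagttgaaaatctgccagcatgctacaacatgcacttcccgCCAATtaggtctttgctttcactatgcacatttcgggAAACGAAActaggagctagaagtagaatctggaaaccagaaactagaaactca
Kmt5a: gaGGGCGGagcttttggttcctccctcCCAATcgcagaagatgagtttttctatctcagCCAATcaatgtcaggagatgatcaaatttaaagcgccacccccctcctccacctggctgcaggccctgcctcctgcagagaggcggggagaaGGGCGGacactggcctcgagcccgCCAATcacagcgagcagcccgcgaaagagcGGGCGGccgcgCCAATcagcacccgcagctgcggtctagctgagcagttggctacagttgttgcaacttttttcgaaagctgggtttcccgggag
Ing4: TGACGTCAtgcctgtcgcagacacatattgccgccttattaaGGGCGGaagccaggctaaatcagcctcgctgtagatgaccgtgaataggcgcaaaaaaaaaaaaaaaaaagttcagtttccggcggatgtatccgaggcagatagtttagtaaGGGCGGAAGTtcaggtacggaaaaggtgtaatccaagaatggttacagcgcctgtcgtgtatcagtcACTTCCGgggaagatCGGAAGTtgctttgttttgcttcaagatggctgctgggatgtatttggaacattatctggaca

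The Phf11d window held 3 CpG dinucleotides, an observed over expected ratio of 0.217, against 18 (0.675) for Kmt5a and 16 (1.02) for Ing4. Of the 25 genes 21 matched a window, and their median ratio was 0.866, against 0.389 over 27025 genes of the table, which include noncoding genes. Only Smarcd2, at 0.177, was below Phf11d among the 21, while 31.5% of all windows were at or below Phf11d.

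The motif matches differed as well. The Kmt5a window held 4 NF-Y sites and 3 GC boxes, and that of Phf11d 2 NF-Y sites and 1 core site of interferon regulatory factors. This core site was searched only after a longer response element had matched Brd7 alone. The Ing4 window held 2 GC boxes, 3 ETS sites, 1 of which overlaps a GC box, and 1 cAMP response element. Of all 27025 windows 38.0% held an NF-Y site, 35.9% a GC box, 6.59% the ETS site and 1.85% the cAMP response element, against 7, 16, 1 and 1 of the 21 chromatin regulators. The site of the TATA-binding protein was in 14.2% of all windows and in 1 of 21, the AP-1 site in 7.92% and in none of 21, and the interferon regulatory factor site in 24.1% and in 2 of 21, Phf11d and Brd7. These matches are descriptions of letters and were not tied to any binding.

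Other chromatin genes lie outside the symbol families. Over 10 lists of partner and related genes, 68 distinct genes were detected, of which 2 (2.94%) reached 1.5-fold higher with FGF2 and none 1.5-fold lower, beside 5.29% and 6.79% of all named genes. Their median log2 ratio was 0.080. The 2 were Bcl7a, a SWI/SNF subunit, with signals of 206.5 and 334.6 and 1.82-fold higher (0.87 ± 0.074), and Uhrf2, which binds methylated or hydroxymethylated DNA, with 1193.1 and 1571.6 and 1.58-fold higher (0.66 ± 0.063). With signals as deposited Bcl7a was at 0.70 and Uhrf2 at 0.40, and these counts moved with the scaling. Signals as deposited gave 1 gene higher (1.47%, Bcl7a) and 3 lower (4.41%, Hmgn2, Anp32a and H3f3a), beside 2.7% and 11.6% of all named genes. The authors' value table gave 6 of 64 higher (9.38%, Bcl7a, Riox2, Uhrf2, Pcgf1, Prmt1 and Nasp) and none lower. Of all named genes 13.6% were higher and 9.74% lower in that table. The 4 detected Smarc genes, also of SWI/SNF complexes, lay between −0.078 and 0.20.

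By list, 6 histone acetyltransferase genes had a median of 0.097, with Kat2a highest at 0.17, and 12 sirtuin and deacetylase partner genes a median of −0.033. In the latter, Rbbp4, a histone-binding subunit, was at 0.37, Sirt7 at 0.36, and Sap130 lowest at −0.14. All 8 detected genes of other histone methyltransferases and their partners were above 0, with a median of 0.17 (2 of 8 with signals as deposited and 7 of 8 after loess), from Men1 at 0.036 to the arginine methyltransferase gene Prmt1 at 0.56 ± 0.057 (2756.3 and 3610.3). Relative to the median of all named genes under the same processing, 7 or 8 of the 8 were above it in each of the 11 settings, and none of the 8 reached 1.5-fold after quantile normalization. In the list of other demethylases Riox2 was the only gene detected, at 0.39.

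The 7 detected Polycomb genes had a median of 0.055, from Pcgf5 at −0.15 to Pcgf1 at 0.44, and 3 DNA methylation genes a median of 0.11. The 13 genes of SWI/SNF, INO80, SRCAP and ISWI complexes had a median of 0.033, from a bound of −0.26 for the remodeller Ino80, undetected with FGF2, to Bcl7a. The histone chaperone list had 4 detected genes with a median of −0.052. Nasp was at 0.38, Supt6 at 0.13, Nucb1 at −0.23 and Anp32a at −0.39 ± 0.072. Nucb1 encodes the calcium-binding protein nucleobindin 1 and is not a histone chaperone, so this median does not describe chaperones alone. The histone variant genes H3f3a and H3f3b, which encode the replication-independent histone H3, were at −0.37 ± 0.056 (2900.4 and 1933.5) and −0.28 ± 0.063 (2468.6 and 1747.7), while Cenpa, the centromeric histone H3, was at 0.22. This list holds older symbols and missed most histone genes. By current symbol, a search added after values were seen, 34 histone genes were detected. Their median was 0.19, against 0.028 for all named genes, and 24 of 34 were above 0, against 54.2% of all named genes. With signals as deposited 13 were above 0. Above the median of all named genes were 23 after quantile normalization and 22 with signals as deposited. The histone H4 gene H4c8 (286.5 and 387.4) was at 0.66 ± 0.065, past 1.5-fold but not with signals as deposited (0.44) or with an offset of 50 and no floor, and the variant gene H2az1 (1742.1 and 2066.1) was at 0.49 ± 0.065. Histone genes are near-identical copies, so a probe may read several of them. The 11 detected architectural genes had a median of −0.0038, from a bound of −0.45 for Hmgn2 to 0.33 for Lmna.

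**Figure D5:**
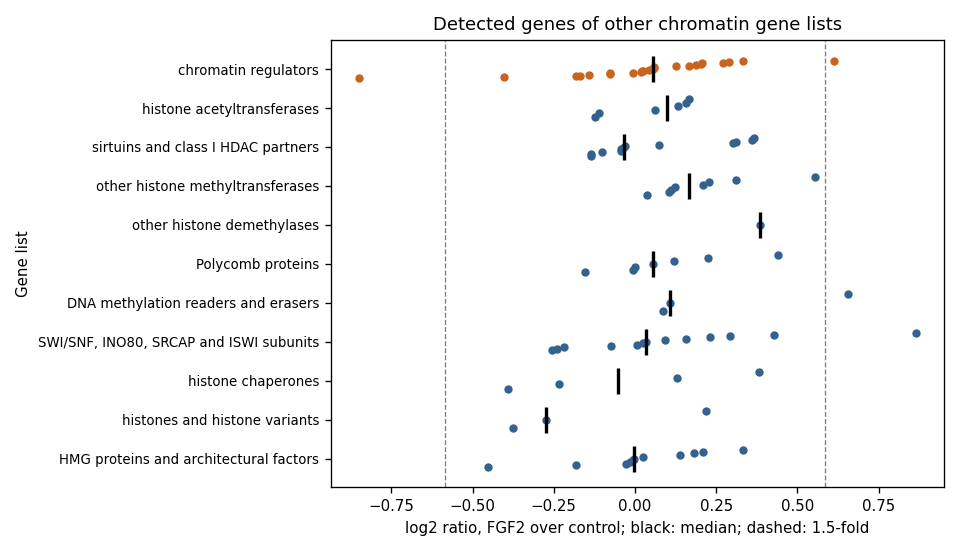
log2 ratios of FGF2 over control (x axis) of detected genes in the symbol families (orange, 25 genes) and in 10 other chromatin gene lists (blue), with medians as black bars and 1.5-fold as dashed lines. Bcl7a at 0.87 and Uhrf2 at 0.66 lie beyond the upper line, and no gene of the 10 lists lies beyond the lower one.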

How the data were processed

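The deposited tables give, for each probe and array, an average bead signal, its bead standard deviation (both fluorescence intensity) and a detection score from 0 to 1, made by the authors with BeadStudio 1.0, per the submitters' processing notes. The authors' value table holds a linear intensity that equals the deposited signal less 135.4 in control, and the signal less 132.6, multiplied by 1.278, with FGF2; its medians are 262.1 and 276.8, it is empty for probes under 0.99, and the origin of its factor is unknown. Identifiers starting scl0 or scl00 were read as NCBI gene numbers and named from RefSeq GRCm38.p6 (8884 probes), a reading and not a probe annotation.

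Signals were quantile normalized (limma 3.58.1, R 4.3.3), values under the lowest normalized signal of detected probes (188.45 in control, 191.7 with FGF2) were raised to it before the log2 step. The brightest probe stood for a gene, and a ratio with 1 undetected side is a bound. Signals of different probes were not ranked as levels. Each group has 1 array, which limits the precision, so no test was run. The code was tested on simulated data. Detected members are named, apart from 1 that is counted but not reported here, as are genes of other lists past 1.5-fold and the extremes of each list, the latter and the motifs chosen after values or sequences were seen; the interferon regulatory factor site replaced a longer response element, searched first, that had matched Brd7 alone. The members and lists were chosen with earlier results of these data known.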

Additional observations from a re-analysis of the deposited data

How the results depend on the processing

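No paired analysis was possible because each group has 1 array, and no replicate could be left out for the same reason. With signals as deposited 0 members were at least 1.5-fold higher and 2 at least 1.5-fold lower, and the median log2 ratio was −0.147. The authors' value table gave 2 lower (Phf11d and Ing4) and a median of 0.13. With cyclic loess, with an offset of 50 and no floor, and with the mean of probes, 0 were higher, since Kmt5a fell under 1.5-fold. The shares among all named genes moved too, to 2.7% higher and 11.6% lower with signals as deposited and to 13.6% and 9.74% in the authors' value table. The other alternatives (median scaling, normexp with quantile normalization, detection at 0.95, detection on both arrays, no filter on detection, in which the floor was not applied to genes detected on neither array, and leaving out Hdac1-ps, which was chosen after seeing the data) kept both counts at 1. Of single member values under the alternatives, 194 stayed within their bead error of the main value and 54 moved further, and none of the 2 past 1.5-fold changed sign. Dim signals limit what can be seen: 19 of 44 members were not above the detection limit. Without background subtraction any difference in these would be understated, as would those of dim detected genes, among them Phf12, Phf20, Chd1l, Brd7 and Setd1a.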
